A study of Mus musculus with 6 samples.

Results

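The 10 genes described here encode enzymes that make serine and that carry its one-carbon units on folate: Phgdh, Psat1, Psph, Shmt1, Shmt2, Mthfd1, Mthfd2, Mthfd1l, Aldh1l2 and Mtr. They were chosen by symbol among the 35976 genes of the count table of brown adipose tissue (BAT), and all 10 passed the filter on low counts, as did 13007 genes in all. Mthfd1l and Aldh1l2 passed it only through the AKO libraries. Control mice labelled WT (3 libraries) were compared with CarS2-AKO mice (AKO, 3 libraries), which carry floxed Cars2 alleles and a Cre recombinase driven by the adiponectin promoter. Every mouse, control or knockout, had spent 4 h in the cold before BAT was taken, so the comparison is within cold-exposed tissue and no library at room temperature was analysed here. The adiponectin promoter is active in adipocytes of all depots, whereas the blood vessel, immune, stromal and nerve cells of BAT keep Cars2. The study's text elsewhere equates its wild-type controls with floxed mice, and whether the WT animals sequenced here carried floxed alleles is not stated in the labels. It gives an age range for its mice as a whole and names males for the feeding experiments, and neither is tied to these libraries. The labels do not say that each library is 1 mouse, so p-values measure the spread between libraries.

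Serine is built from the glycolytic intermediate phosphoglycerate in the cytosol, by an oxidation, a transamination and a dephosphorylation. Serine hydroxymethyltransferases then pass a carbon of serine to tetrahydrofolate and leave glycine, and parallel sets of enzymes in the cytosol and the mitochondria interconvert the folate-bound unit, which mitochondria can release as formate. The units are used for purines, thymidylate, methionine and the formylated initiator tRNA of mitochondrial translation. In many mammalian cells a subset of these enzymes is induced by the transcription factor ATF4 when mitochondria are disturbed.

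The libraries held 6540619 to 8461685 counts, and levels are CPM, counts scaled to library size and then by TMM factors of 0.9298 to 1.077. Cars2, the targeted gene that encodes mitochondrial cysteinyl-tRNA synthetase, was at 786, 459 and 632 CPM in WT and at 220, 248 and 132 CPM in AKO, a log2 fold change of −1.64 ± 0.23 (SE, n = 3 per group, adjusted p = 0.000192, edgeR's quasi-likelihood test). The groups did not overlap, and Cars2 remained detectable in each AKO library. Markers of several other cell types of the tissue differed between the groups. Macrophage markers (8 of 8 genes higher) summed to 66.08 to 92.7 CPM in WT and 307.8 to 428.9 in AKO, with Mpeg1 the most abundant over the 6 libraries. Proliferation markers (7 of 7 tested of 8 higher, Ccna2 the most abundant) summed to 5.348 to 8.332 CPM in WT and 24.14 to 32.27 in AKO, and fibroblast and progenitor markers (5 of 6 higher, Col1a1 the most abundant over the 6 libraries) to 314.0 to 427.3 and 778.8 to 854.6. Of the proliferation markers tested, only Ccna2 reached the filter's level in every WT library. The others were tested only through the AKO libraries, as was the macrophage marker Trem2, named after its values were seen. Brown adipocyte markers (5 of 7 lower, Ucp1 the most abundant) summed to 18810 to 19990 CPM in WT and 5497 to 8944 in AKO. Skeletal muscle markers (7 of 7 higher, Acta1 the most abundant) summed to 49.28 to 325.2 and 698.3 to 1490. Markers of adipocytes in general went both ways (4 of 7 lower, 1 higher), and 3 of 5 white adipocyte markers were higher. Endothelial markers (2 of 5 lower) and mural markers (1 of 5 higher) were mostly not called. The part of these shifts in the values below was not tested, and in bulk tissue fewer cells of a type and less RNA per cell cannot be told apart.

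Of the 10 enzymes, 8 rose in AKO, none fell and 2 were not called at an adjusted p under 0.05 by edgeR. No enzyme was lower at an unadjusted p under 0.05 or by DESeq2 either. Over all genes tested, 20.2% were called higher and 17.5% lower. For the same 8 enzymes every AKO library was above every WT library, against 25.7% of all genes, and for none was every AKO library below, against 24.4% of all genes. Of the 8 enzymes that reached the filter's level in every WT library, 6 rose, and the log2 fold changes of these 8 had a median of 1.27. The median of the 10 was 1.51, and that of all genes tested was 0.01. By place in the cell, 4 of 4 mitochondrial folate enzymes rose: Shmt2 and Mthfd2, and also Mthfd1l and Aldh1l2, which were tested only through the AKO libraries. So did 2 of 3 cytosolic folate enzymes (Mthfd1 and Mtr) and 2 of 3 serine synthesis enzymes (Phgdh and Psat1).

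**Figure D1:**
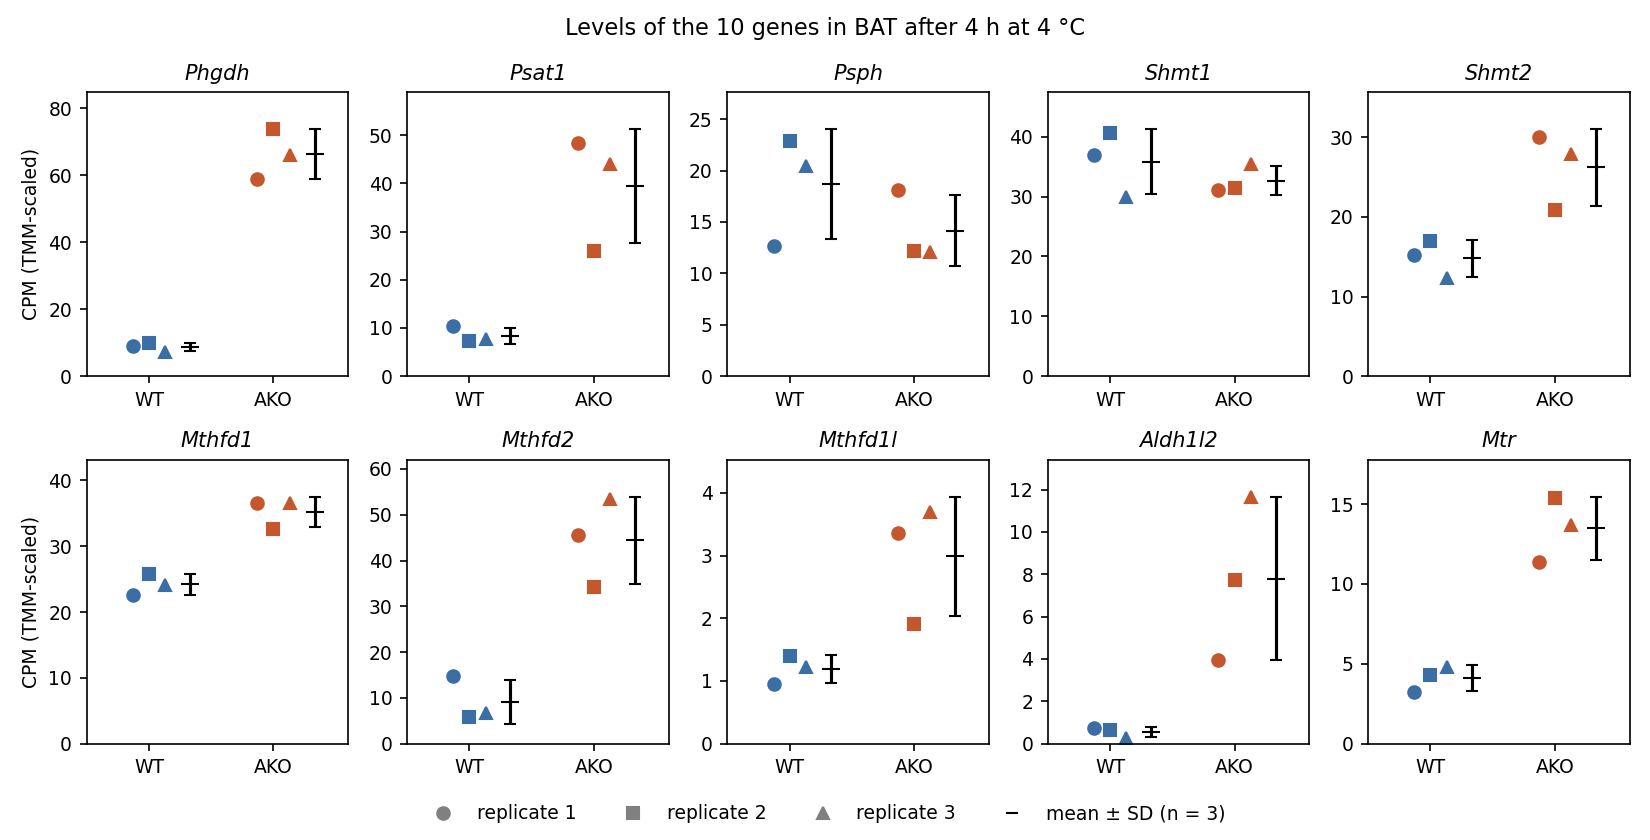
Level of each enzyme in TMM-scaled CPM (linear axes from 0, 1 panel per gene) in the 3 WT and 3 AKO libraries, with a symbol per replicate and the mean ± SD beside them. The AKO symbols lie above the WT symbols for 8 enzymes and overlap them for Psph and Shmt1.

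Among the enzymes of serine synthesis, the largest difference was that of the first step. Phgdh (phosphoglycerate dehydrogenase, chromosome 3, 98313171 to 98339969, minus strand, RefSeq span on GRCm38) oxidizes phosphoglycerate and commits it to serine. It was at 9.11, 9.80 and 7.24 CPM in WT (8.72 ± 1.33, SD) and at 58.9, 73.8 and 66.1 CPM in AKO (66.3 ± 7.45). The lowest AKO library lay far above the highest WT library. The log2 fold change was 2.92 ± 0.16 (SE, adjusted p = 5.08e-07, edgeR), with a 95% interval of 2.58 to 3.26, and Phgdh ranked 3 of 13007 genes by p. A processed pseudogene of Phgdh on chromosome 7 has no row in the table, and no source used here says how reads shared with it were assigned.

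Psat1 (phosphoserine aminotransferase, chromosome 19, 15905123 to 15925059, minus strand) moves an amino group from glutamate onto the oxidized product. Its levels were 10.3, 7.26 and 7.65 CPM in WT and 48.4, 26.0 and 44.0 CPM in AKO. AKO replicate 2 was the lowest of the knockouts and still above the WT libraries. On the log2 scale the difference was 2.22 ± 0.23 (SE, adjusted p = 2.59e-05, edgeR), a mean of 39.5 ± 11.8 CPM against 8.41 ± 1.66.

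Psph (phosphoserine phosphatase, chromosome 5, 129765558 to 129787443, minus strand) releases free serine in the last step, and it did not move with the other 2. It was at 12.7, 22.9 and 20.5 CPM in WT and at 18.1, 12.2 and 12.1 CPM in AKO. The groups overlapped because WT replicate 1 was low and AKO replicate 1 was high. The log2 fold change was −0.40 ± 0.23 (SE, adjusted p = 0.196, edgeR), with a 95% interval of −0.90 to 0.10, so a rise of the size seen for Phgdh or Psat1 lay outside it. Without WT replicate 1 the value was −0.61 and was called lower (adjusted p = 0.0462). Of the exon bases of Psph, 10.4% overlap Cct6a on the other strand, a chaperonin subunit gene that averaged 144 CPM in WT and 130 in AKO and was not called, and no source used here says whether reads were counted by strand.

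The 3 steps were therefore expressed in other proportions. To set genes roughly side by side, counts were divided by the merged length of all annotated exons of a gene. That length can differ from the length of the transcript expressed here. Phgdh then made up 35.8 ± 4.89% of the summed level of the 3 genes in WT (SD, n = 3) and 68.0 ± 8.30% in AKO. Psph made up 43.7 ± 9.69% in WT and 8.33 ± 2.02% in AKO. The share of Psat1 was 20.5 ± 5.77% and 23.6 ± 6.88%, a difference within the spread. These shares are a description and were not tested.

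Phgdh and Psat1 were both higher in AKO and Psph was not, so the promoter sequences of the 3 are shown. That of Mthfd2, a mitochondrial folate enzyme that rose about as much as Psat1, is shown with them. The windows are those of RefSeq on GRCm38.p6, from 250 bases before the annotated start to 50 after it, and 9 of the 10 genes had one. They are chr3:98339920-98340219 for Phgdh, chr19:15925010-15925309 for Psat1 (the first of its 2 windows), chr5:129787204-129787503 for Psph and chr6:83317555-83317854 for Mthfd2, all read on the minus strand. The starts used for Psph and Mthfd2 lie inside the gene spans given for these genes here. Capitals mark the CCAAT box, written as CCAAT or as its reverse complement ATTGG.
Phgdh: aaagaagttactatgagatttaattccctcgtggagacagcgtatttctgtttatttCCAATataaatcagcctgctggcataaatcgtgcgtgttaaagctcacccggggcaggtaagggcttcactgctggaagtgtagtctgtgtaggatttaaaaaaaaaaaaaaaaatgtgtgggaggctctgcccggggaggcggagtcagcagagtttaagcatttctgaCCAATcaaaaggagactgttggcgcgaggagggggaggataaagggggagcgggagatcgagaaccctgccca
Psat1: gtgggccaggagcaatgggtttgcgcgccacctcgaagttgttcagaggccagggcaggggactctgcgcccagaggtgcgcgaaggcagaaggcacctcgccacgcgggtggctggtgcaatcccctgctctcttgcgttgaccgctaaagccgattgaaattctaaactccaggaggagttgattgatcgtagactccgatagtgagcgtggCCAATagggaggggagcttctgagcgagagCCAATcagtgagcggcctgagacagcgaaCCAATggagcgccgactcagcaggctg
Psph: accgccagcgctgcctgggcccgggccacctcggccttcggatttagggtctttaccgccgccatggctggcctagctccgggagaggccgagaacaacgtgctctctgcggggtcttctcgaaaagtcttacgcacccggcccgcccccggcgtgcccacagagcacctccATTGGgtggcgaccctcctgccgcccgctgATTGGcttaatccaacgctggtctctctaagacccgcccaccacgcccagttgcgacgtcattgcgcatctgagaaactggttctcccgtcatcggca
Mthfd2: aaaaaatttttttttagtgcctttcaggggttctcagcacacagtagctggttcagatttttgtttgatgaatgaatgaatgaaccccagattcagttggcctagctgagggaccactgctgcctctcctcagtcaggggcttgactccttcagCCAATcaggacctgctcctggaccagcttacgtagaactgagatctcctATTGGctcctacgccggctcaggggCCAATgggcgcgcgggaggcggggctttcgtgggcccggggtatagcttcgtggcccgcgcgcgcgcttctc
CCAAT, on either strand, was present in 7 of the 9 genes (Phgdh, Psat1, Psph, Shmt1, Mthfd1, Mthfd2 and Mtr) and in 37.4% of all 32851 windows (41.1% of genes). It was found in Psph and Shmt1, which were not called, and not in Shmt2 or Mthfd1l, which rose. TGATGNAA, the core of the element that C/EBP and ATF factors bind together, was found in 3.97% of all windows and in none of the 9 genes, and the E-box CACGTG in 7.15% and in none. CCAAT was chosen after the sequences had been read, a match is no binding site, and the absence of these letters in such a window says nothing about a factor acting elsewhere.

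The 4 mitochondrial enzymes among the 10 rose by unequal amounts, and Mthfd1l did so under most but not all settings. Shmt2 (mitochondrial serine hydroxymethyltransferase, chromosome 10, 127517123 to 127522444, minus strand) takes the one-carbon unit from serine. Its levels were 15.2, 16.9 and 12.3 CPM in WT and 30.0, 20.8 and 27.9 CPM in AKO. The groups did not overlap, and AKO replicate 2 lay closest to WT. Shmt2 thus differed by a log2 fold change of 0.82 ± 0.18 (SE, adjusted p = 0.00339, edgeR), a mean of 14.8 ± 2.35 CPM against 26.2 ± 4.80.

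Mthfd2 (chromosome 6, 83305704 to 83326011, minus strand) encodes a dehydrogenase and cyclohydrolase that oxidizes the folate-bound unit, an enzyme typical of embryonic, proliferating and tumour cells. It was at 14.7, 5.86 and 6.69 CPM in WT and at 45.5, 34.3 and 53.4 CPM in AKO. WT replicate 1 lay above the other WT libraries but below each AKO library. For Mthfd2 the log2 fold change was 2.27 ± 0.28 (SE, adjusted p = 7.88e-05, edgeR), and it was 2.82 without WT replicate 1.

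Mthfd1l (chromosome 10, 3972892 to 4167081, plus strand) encodes the synthetase that releases formate from the folate. Its levels were 0.959, 1.40 and 1.23 CPM in WT, from 8, 11 and 9 counts, and 3.36, 1.91 and 3.70 CPM in AKO, from 28, 15 and 26 counts. The AKO libraries lay above the WT libraries by a small margin for AKO replicate 2. The log2 fold change was 1.31 ± 0.36 (SE, adjusted p = 0.0123, edgeR). It was not called by DESeq2 (1.30, adjusted p = 0.0552), nor by edgeR without WT replicate 1 (1.17, adjusted p = 0.0565) or without AKO replicate 3 (1.14, adjusted p = 0.0505).

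Aldh1l2 (chromosome 10, 83487447 to 83534146, minus strand) encodes mitochondrial formyltetrahydrofolate dehydrogenase, which oxidizes the unit to carbon dioxide and yields NADPH. It was at 0.720, 0.637 and 0.273 CPM in WT, from 6, 5 and 2 counts, and at 3.96, 7.75 and 11.7 CPM in AKO, from 33, 61 and 82 counts. It was near the limit of detection in WT and varied widely among the AKO libraries. Its log2 fold change was the largest of the 10 enzymes, 3.77 ± 0.48 (SE, adjusted p = 9.00e-05, edgeR), with a 95% interval of 2.73 to 4.81. Of its exon bases, 14.1% overlap D10Wsu102e on the other strand, which averaged 10.4 ± 0.994 CPM in WT and 15.8 ± 2.73 in AKO (0.60 ± 0.18, adjusted p = 0.0221, edgeR), and without a known strand setting reads of the shared bases cannot be told apart.

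**Figure D2:**
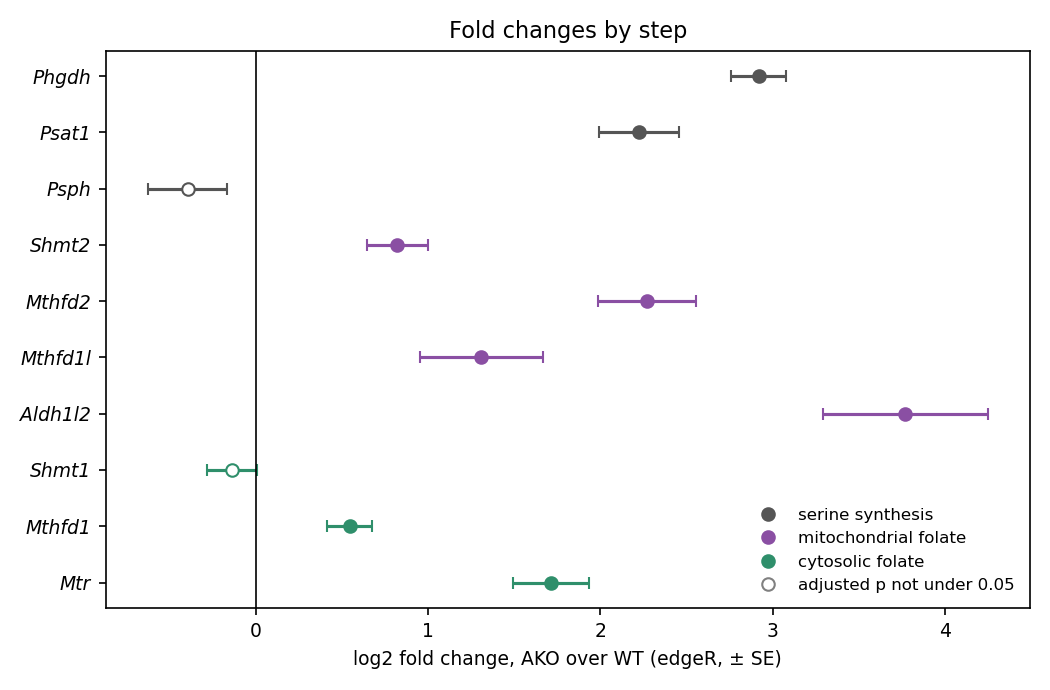
Log2 fold change of AKO over WT for each enzyme from edgeR, with bars of 1 SE and colours for serine synthesis, mitochondrial folate and cytosolic folate. Open symbols mark Psph and Shmt1, which were not called, and the filled symbols run from 0.54 for Mthfd1 to 3.77 for Aldh1l2.

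The 3 cytosolic folate enzymes moved unequally. Shmt1 (chromosome 11, 60788897 to 60811265, minus strand), the cytosolic counterpart of Shmt2, was at 36.9, 40.6 and 29.9 CPM in WT and at 31.1, 31.4 and 35.4 CPM in AKO. The groups overlapped. The log2 fold change was −0.14 ± 0.14 (SE, adjusted p = 0.484, edgeR), with a 95% interval of −0.45 to 0.17.

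Mthfd1 (chromosome 12, 76254406 to 76319820, plus strand) encodes the cytosolic enzyme that joins the dehydrogenase, cyclohydrolase and synthetase in 1 protein. Its levels were 22.5, 25.8 and 24.2 CPM in WT and 36.6, 32.6 and 36.6 CPM in AKO. The libraries of each group lay close together and the groups did not overlap. Its log2 fold change was the smallest among the called enzymes, 0.54 ± 0.13 (SE, adjusted p = 0.00611, edgeR).

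Mtr (methionine synthase, chromosome 13, 12181331 to 12258199, minus strand) moves the methyl group of methyl-folate onto homocysteine and needs cobalamin. It was at 3.24, 4.33 and 4.78 CPM in WT and at 11.4, 15.4 and 13.7 CPM in AKO. Each AKO library exceeded each WT library. Mtr rose by a log2 fold change of 1.71 ± 0.22 (SE, adjusted p = 9.55e-05, edgeR). Mtrr, which reactivates methionine synthase, was not called (−0.20).

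Ratios within a library do not depend on how libraries are scaled. The log2 count ratio of Shmt2 to Shmt1 was −1.28, −1.26 and −1.28 in WT and −0.05, −0.59 and −0.34 in AKO, so the mitochondrial gene gained on its cytosolic counterpart in each knockout, by 0.94 on average. For Mthfd2 over Mthfd1 it was −0.61, −2.13 and −1.84 in WT and 0.31, 0.07 and 0.54 in AKO, a difference of 1.84. For Mthfd1l over Mthfd1 it was −4.47, −4.14 and −4.22 in WT and −3.42, −4.05 and −3.28 in AKO, a difference of 0.69. In all 3 ratios the AKO libraries lay above the WT libraries, with AKO replicate 2 nearest to WT. For each, the two-sided exact permutation p was 0.10 (adjusted over the 3 ratios 0.10), the smallest that 3 against 3 can give.

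**Figure D3:**
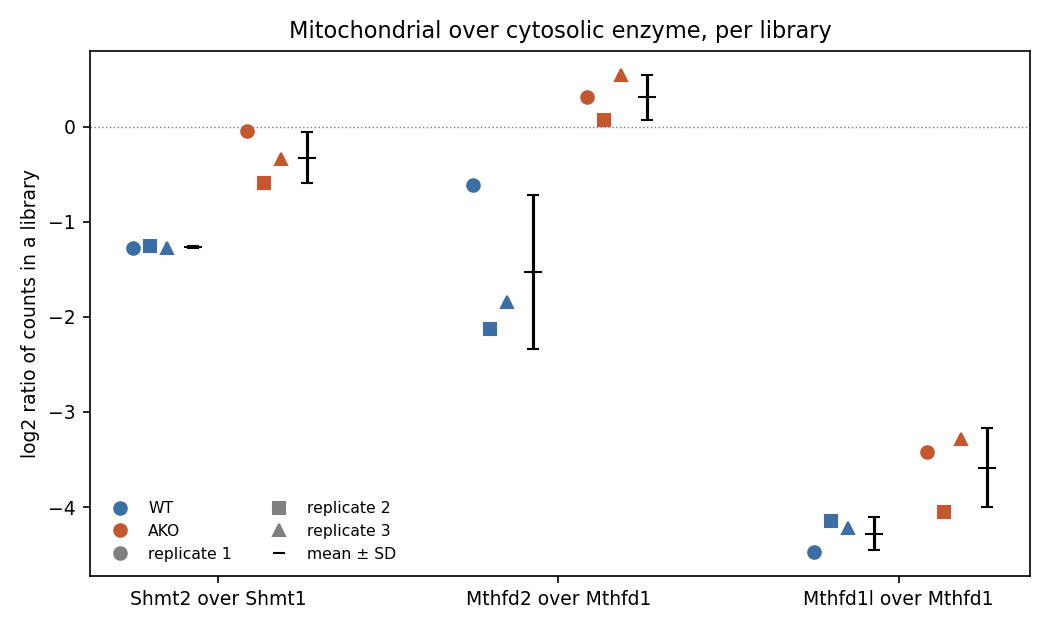
Log2 count ratio of a mitochondrial over a cytosolic folate enzyme in each library, with the mean ± SD beside the points. The AKO points lie above the WT points for each ratio, and AKO replicate 2 (square) is the lowest AKO point.

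The order of the enzymes by level per kilobase of exon changed. In WT, Shmt1 was first with 9.23 ± 1.40 CPM per kilobase (SD, n = 3), followed by Mthfd1 with 5.45 ± 0.372, Shmt2 with 4.77 ± 0.755, Psph with 4.32 ± 1.23, Phgdh with 3.51 ± 0.534, Mthfd2 with 2.61 ± 1.41 and Psat1 with 1.98 ± 0.391. From Mthfd1 to Psat1, neighbours in that order lay within their spread. Mtr (0.483 ± 0.0931), Mthfd1l (0.270 ± 0.0502) and Aldh1l2 (0.0724 ± 0.0316) were below the rest, and these last levels were apart by more than their spread. In AKO, Phgdh was first with 26.7 ± 3.00 CPM per kilobase, above Mthfd2 with 12.7 ± 2.75. Mthfd2 and Psat1 lay within their spread, and Psat1 (9.28 ± 2.78), Shmt2 (8.44 ± 1.54), Shmt1 (8.40 ± 0.629) and Mthfd1 (7.94 ± 0.512) could not be ordered beyond their spread. Psph followed with 3.27 ± 0.796, apart from its neighbours on both sides. Mtr with 1.58 ± 0.234, Aldh1l2 with 1.04 ± 0.514 and Mthfd1l with 0.674 ± 0.215 came last, and there neighbours overlapped in spread.

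**Figure D4:**
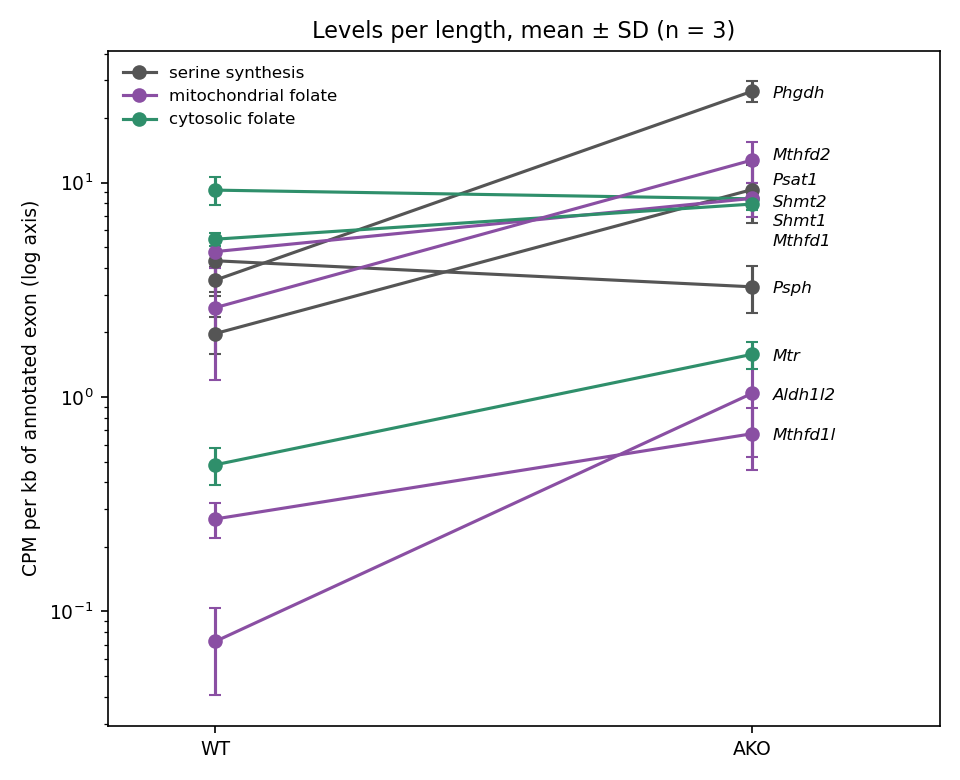
Level of each enzyme in CPM per kilobase of exon (log axis) in WT and AKO, as the mean ± SD over 3 libraries joined by a line. Shmt1 is the highest enzyme in WT (9.23) and Phgdh in AKO (26.7).

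Among the AKO libraries, replicate 2 was often the lowest. Of the 8 that rose, AKO replicate 2 was at the bottom of its group for 5 (Psat1, Shmt2, Mthfd1, Mthfd2 and Mthfd1l) and the highest for Phgdh and Mtr. AKO replicate 3 was the lowest for none of them. Leaving out AKO replicate 2 kept all 8 calls.

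The genes whose profile over the 6 libraries was nearest to that of Phgdh, by the root-mean-square difference of log2 CPM after each gene's WT mean was subtracted, were Kcnn4 (0.177), 9130401M01Rik (0.201), Pycr1 (0.223), Clec4d (0.276) and Pik3r5 (0.290). Kcnn4 is a calcium-activated potassium channel, Pycr1 a mitochondrial enzyme that makes proline, Clec4d a lectin of myeloid cells and Pik3r5 a regulatory subunit of phosphoinositide kinase. Kcnn4 went from 0.717 ± 0.152 to 5.14 ± 0.426 CPM, and Pycr1 from 0.552 ± 0.0454 to 4.00 ± 0.279. Kcnn4, Pycr1 and Clec4d were below the filter's level in each WT library and passed it only through the AKO libraries. Genes with a count of 0 in any library were left out of this search, and likeness over 6 libraries in 2 groups is mostly a like fold change.

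The other genes of the folate cycle were mostly not called. Among them Mthfd2l, a mitochondrial relative of Mthfd2 named after its values were seen, averaged 5.06 ± 0.947 CPM in WT and 4.85 ± 0.611 in AKO (−0.06, adjusted p = 0.871, edgeR). Of 15 genes of this list tested, 2 were higher and 12 were not called, with a median log2 fold change of 0.18. Most genes of the whole table were not called either (8110 of 13007 tested), and 20.2% were higher. Folr2, a folate receptor typical of tissue macrophages, rose by 1.01 (adjusted p = 0.00506, edgeR) and Fpgs, which adds the glutamate tail that keeps folate in cells, by 0.59. Without WT replicate 2, 1 gene of this list was higher.

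Genes that use the products were called in both directions. So were genes of the whole table, with 20.2% of all genes tested higher and 17.5% lower. Of 9 genes of glycine cleavage and serine use, 1 was higher and 2 were lower (median −0.28): Sptlc2 rose by 0.68 and Sptlc1 fell by 0.58, both subunits of the enzyme that starts sphingolipid synthesis from serine, and Dld, shared by glycine cleavage and pyruvate oxidation, fell by 0.37. Of 15 genes of purine and thymidylate synthesis, 2 were higher (Dut, 1.09, and Gart, 0.37), 1 was lower (Gmps, −0.43) and 12 were not called (median 0.24), and none was higher without WT replicate 1. Of 15 genes of the methionine cycle and transsulfuration, 3 were higher, 2 were lower and 10 were not called (median −0.06). Nnmt and Gnmt, which both consume methyl groups, had log2 fold changes of −1.02 and −1.26. Cth, which forms cysteine from cystathionine, rose by 1.17, although its groups overlapped, with 7.67 CPM in WT replicate 1 and 6.99 in AKO replicate 2. Sardh and Ahcyl2 rose by 0.62 and 0.45, and no gene of this list was higher without WT replicate 2.

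Of 8 carriers of serine and glycine, 6 rose and none fell, with a median of 1.02 (edgeR, and none was lower at an unadjusted p under 0.05). Over all genes tested, 20.2% were called higher and 17.5% lower. Slc1a5, which exchanges neutral amino acids at the cell surface, went from 128 ± 8.88 to 295 ± 62.8 CPM (1.20, adjusted p = 0.000108, edgeR), and the glycine carrier Slc6a9 from 1.12 ± 0.567 to 6.18 ± 0.323 CPM (2.42, adjusted p = 0.000155). Slc38a1 (1.91), Slc1a4 (1.50) and Sfxn2 (0.84) also rose. Slc6a9, Slc38a1 and Slc1a4 did not reach the filter's level in every WT library and were tested only through the AKO libraries. The count of 6 and the median include them. Sfxn1, which carries serine into mitochondria and was named here after its values were seen, rose by 0.42 (adjusted p = 0.0323). Of the carriers that reached the filter's level in every WT library, Slc1a5, Sfxn1 and Sfxn2 rose. Sfxn3 (0.54) and Slc38a2 (−0.20) were not called. With a filter at a mean of 5 CPM, 3 carriers were called.

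Of 8 genes of the glycolytic steps around phosphoglycerate, 4 fell, 2 rose and 2 were not called (median −0.42), and 2 were lower without WT replicate 2. The shares over all genes tested were 17.5% lower and 20.2% higher. Pgk1, which forms phosphoglycerate, went from 872 ± 3.80 to 519 ± 31.9 CPM (−0.75, adjusted p = 0.000473, edgeR), and Pgam1, which draws it away from serine synthesis, from 566 ± 47.6 to 341 ± 41.9 CPM (−0.73, adjusted p = 0.00111). Bpgm fell by 0.64 on the log2 scale. The 2 that rose, Eno3 (1.87) and Pgam2 (1.64), are the muscle forms of their enzymes, and the skeletal muscle markers rose beside them.

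Of 14 regulators and targets of the ATF4 pathway, 8 rose, 2 fell and 4 were not called (median 0.49). Among all genes tested, 20.2% were called higher and 17.5% lower. The 2 of the list that fell, named after their values were seen, were Eif2ak1 (−0.63) and Cebpb (−0.37). Trib3, a pseudokinase induced by ATF4, rose by 3.35 (adjusted p = 2.67e-07, edgeR), the glutathione-degrading enzyme Chac1 by 3.13, Atf3 by 2.48, Ddit3 by 1.85 and Nupr1 by 1.46. Chac1 was below the filter's level in each WT library and was tested only through the AKO libraries. Atf4 itself, named after its values were seen, was at 285, 297 and 266 CPM in WT and at 414, 313 and 370 CPM in AKO (0.37 ± 0.13, adjusted p = 0.0429). Its AKO libraries lay above WT. A role of ATF4 in the levels of the enzymes was not tested. These lists were chosen with earlier results of the data known, and their counts stand as a description.

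**Figure D5:**
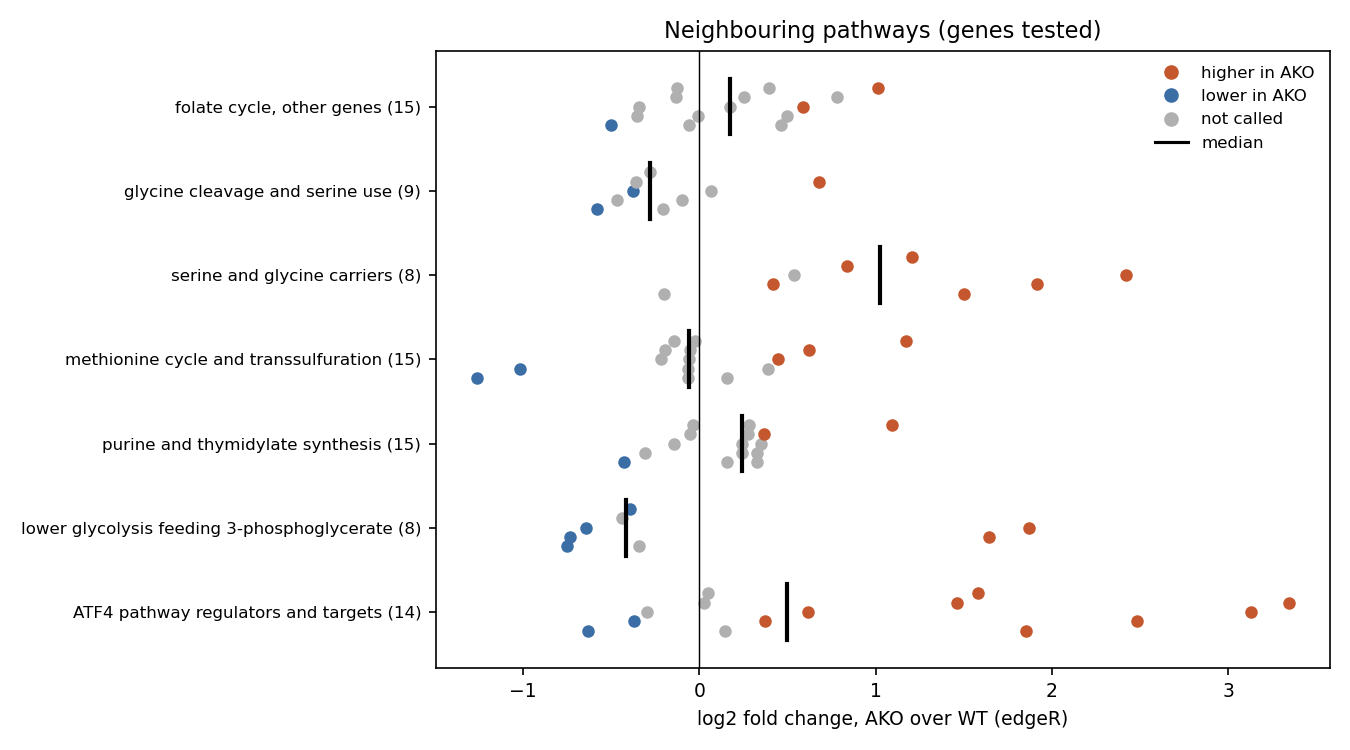
Log2 fold change of AKO over WT (edgeR) for each tested gene of 7 related lists, with 1 point per gene, the number tested in brackets and a black bar at the median; height within a list carries no meaning. The medians run from −0.42 (lower glycolysis) to 1.02 (serine and glycine carriers), and called genes are red (higher) or blue (lower).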

How the data were processed

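Polyadenylated RNA of BAT was sequenced in 3 WT and 3 AKO libraries as DNA nanoballs. The authors deposited whole-number counts per gene, with no normalization. The study's methods name STAR, HTSeq and DESeq2, whereas tools listed in the submitters' processing notes, with no role, are RSEM 1.3.1, Bowtie2 and DESeq2 1.4.5, and the build mm10. No source used here gives the strand setting, the annotation release or the treatment of multi-mapped reads. A count above 0 was found for 22147 genes, of which filterByExpr (edgeR) kept 13007, and those removed held 0.226% of counts. Counts were fitted with edgeR 4.0.16 in R 4.3.3 (TMM, glmQLFit, glmQLFTest, genotype as the only term), with Benjamini-Hochberg adjustment over all genes tested and a threshold of 0.05. Replicates differed beyond sampling noise (chi-square per degree of freedom 5.56 to 19.2). Ratios used counts plus 0.5. Exon lengths, chromosomes and strands came from GENCODE M21, and the start and end positions of genes and the promoters from RefSeq. An exon length is that of all annotated exons of a gene merged, so orders of genes by level per kilobase are approximate. The procedure was tested on simulated data.

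Named were Cars2, the 10 enzymes, up to 5 called genes of each list by lowest p, the most abundant gene of marker lists and the 5 genes nearest to Phgdh, and not every gene so named is printed. A result of the folate cycle list is not reported here. The members and lists were chosen with earlier results of these data known. Alternatives were RLE or upper-quartile factors, library totals, DESeq2 1.42.0, limma-voom 3.58.1, no filter, a mean of at least 5 CPM, a replicate block and leaving out each library.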

Additional observations from a re-analysis of the deposited data

How the results depend on the processing

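No enzyme changed direction under any alternative. Of the 10 enzymes, 8 were higher under RLE, upper-quartile or library-total scaling, limma-voom, no filter and the replicate block, 7 with DESeq2 and 6 with a mean of at least 5 CPM, which leaves out Mthfd1l and Aldh1l2. With 1 library left out, 7 to 8 were higher and 0 to 1 lower, the 1 being Psph without WT replicate 1 (−0.61). The difference in Shmt2 over Shmt1 then ranged from 0.80 to 1.07, in Mthfd2 over Mthfd1 from 1.54 to 2.29, and in Mthfd1l over Mthfd1 from 0.54 to 0.93. With the replicate block, 8 enzymes were higher and 0 lower, the sign-flip p of each ratio was 0.25, and 2636 genes of the whole table were higher and 2290 lower, against 2623 and 2274 without it. Deviations of same-numbered libraries correlated at −0.02, 0.01 and 0.18, and those of differently numbered libraries of the 2 groups at −0.229 to 0.192. With 3 libraries per group, these values cannot decide whether same-numbered libraries share more than a number. With library totals alone the median of all genes was 0.10 and 65.2% of calls were higher, against 0.01 and 53.6%. Counts of called genes in the other lists, added after seeing the data, moved by up to a few genes; purine and thymidylate synthesis ranged from 0 to 3 higher, with 3 without AKO replicate 1, and the other folate genes from 1 to 4, with 4 without AKO replicate 1. The 2 lower genes of glycine cleavage and serine use became 1 with any library left out other than AKO replicate 3, and the 2 lower genes of the ATF4 list became 1 with any left out other than AKO replicate 1. Mthfd1l and Aldh1l2 rested on 8 to 11 and 2 to 6 counts per WT library, which limits their fold changes. The causes of these differences were not tested.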
